A study of Mus musculus with 6 samples.

Results

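The genes described here carry out the integrated stress response and the unfolded protein response, and were compared between B16-F1 and D5.1G4, both melanoma lines of the mouse. They are a fixed list of 46 gene symbols, found on the microarray by matching each probe's RefSeq accession to a symbol, among 20659 genes with a probe in all. Every one of the 46 had a probe, 54 probes in total, and 45 were tested, the exception being Hyou1. B16-F1 is a line of the B16 melanoma, which arose in a C57BL/6 mouse, and D5.1G4 is given in the labels as a melanoma line without further description of its origin or genotype. The series title sets the comparison among mouse melanomas of differing tumorigenicity. Neither line was given a treatment, and each was seeded at 1000000 cells and kept for 24 hours in RPMI-1640 with 10% fetal bovine serum, reaching 75 to 95% confluence. RNA of each line was hybridised to 3 one-colour Agilent arrays, and since nothing in the labels names separate cultures behind them, p-values measure the spread between these arrays, which may be technical.

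The integrated stress response begins when a kinase, among them PERK (Eif2ak3, activated by unfolded protein in the endoplasmic reticulum, ER) or GCN2 (Eif2ak4, activated by amino acid shortage), phosphorylates the translation factor eIF2. General translation then falls while translation of the transcription factor ATF4 rises, and ATF4 induces genes for amino acid synthesis and transport, further transcription factors and feedback inhibitors. The unfolded protein response adds 2 more ER sensors: ATF6, which is cleaved to release a transcription factor, and IRE1 (Ern1), which splices the mRNA of the transcription factor XBP1. ATF6 and XBP1 induce ER chaperones, protein disulfide isomerases and the machinery that removes misfolded protein. Phosphorylation, cleavage, splicing and translation are not seen by the array, which measures transcript levels. The 46 genes were read as an ATF4 arm of 28 genes, an ATF6-XBP1 arm of 14, and the 4 sensor and kinase genes Atf6, Ern1, Eif2ak3 and Eif2ak4.

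The DNA elements through which the arms are known to be read are shown first. The gene list was not chosen by sequence, but it holds genes of these same arms. The shares below therefore describe the list and test nothing. Of the 40 members with a promoter, 12 held a match to any element. ATF4 acts on the C/EBP-ATF response element, searched here as TGATGNAA on either strand in the 250 bases before each transcription start. RefSeq's promoter table (GRCm38.p6) held 40 of the 46 genes, and 6 of 25 ATF4 arm genes (24%) had a match, against 3.91% of the 27025 genes in the table and 1 of 12 ATF6-XBP1 arm genes (8.33%). The matches are given in capitals within the surrounding bases, 5′ to 3′ along the gene's own strand. Slc7a11 carried a pair of matches in opposite orientation.
Asns, chr6:7693210-7693257, minus strand: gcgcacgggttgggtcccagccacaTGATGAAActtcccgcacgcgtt
Atf3, chr1:191183411-191183468, minus strand: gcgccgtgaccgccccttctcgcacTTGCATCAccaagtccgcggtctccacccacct
Chac1, chr2:119351024-119351081, plus strand: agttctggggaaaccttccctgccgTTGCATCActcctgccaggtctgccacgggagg
Fgf21, chr7:45615597-45615654, minus strand: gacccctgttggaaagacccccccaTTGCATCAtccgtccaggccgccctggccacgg
Nupr1, chr7:126625548-126625605, minus strand: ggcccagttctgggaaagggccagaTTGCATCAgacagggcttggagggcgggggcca
Slc7a11, chr3:50443628-50443704, minus strand: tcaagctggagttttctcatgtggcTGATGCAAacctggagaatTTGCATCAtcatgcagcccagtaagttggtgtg

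ATF6, with the factor NF-Y, acts on the ER stress response element, searched as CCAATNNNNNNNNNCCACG on either strand. It matched in 5 of 12 ATF6-XBP1 arm genes (41.7%), in 0 of 25 ATF4 arm genes and in 0.13% of all genes in the table. Hsp90b1 had 2 matches, and in Creld2 and the nearer Hsp90b1 match the element lies in reverse.
Creld2, chr15:88819495-88819563, plus strand: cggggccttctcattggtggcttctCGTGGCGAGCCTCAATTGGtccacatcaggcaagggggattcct
Dnajc3, chr14:118937802-118937870, plus strand: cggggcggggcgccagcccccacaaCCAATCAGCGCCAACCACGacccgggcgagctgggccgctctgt
Hsp90b1, chr10:86705613-86705681, minus strand: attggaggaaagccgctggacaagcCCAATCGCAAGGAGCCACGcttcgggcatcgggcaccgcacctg
Hsp90b1, chr10:86705508-86705576, minus strand: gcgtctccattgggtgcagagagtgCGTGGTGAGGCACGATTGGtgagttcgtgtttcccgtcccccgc
Hspa5, chr2:34772000-34772068, plus strand: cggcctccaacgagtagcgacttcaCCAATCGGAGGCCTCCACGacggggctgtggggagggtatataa
Pdia6, chr12:17266466-17266534, plus strand: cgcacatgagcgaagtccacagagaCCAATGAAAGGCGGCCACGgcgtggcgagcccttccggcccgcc

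Herpud1 carried both kinds: the C/EBP-ATF element and ER stress response element II, searched on both strands, which 0.037% of all genes hold. No other member matched the second element, no member matched the unfolded protein response element TGACGTGG (0.603% of all genes), and no match of one element overlapped a match of another. A match describes letters in this window and is not a measured binding site.
Herpud1, chr8:94386292-94386349, plus strand: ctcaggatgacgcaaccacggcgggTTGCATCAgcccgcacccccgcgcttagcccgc
Herpud1, chr8:94386352-94386412, plus strand: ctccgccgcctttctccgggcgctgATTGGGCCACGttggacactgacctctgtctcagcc

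**Figure D1:**
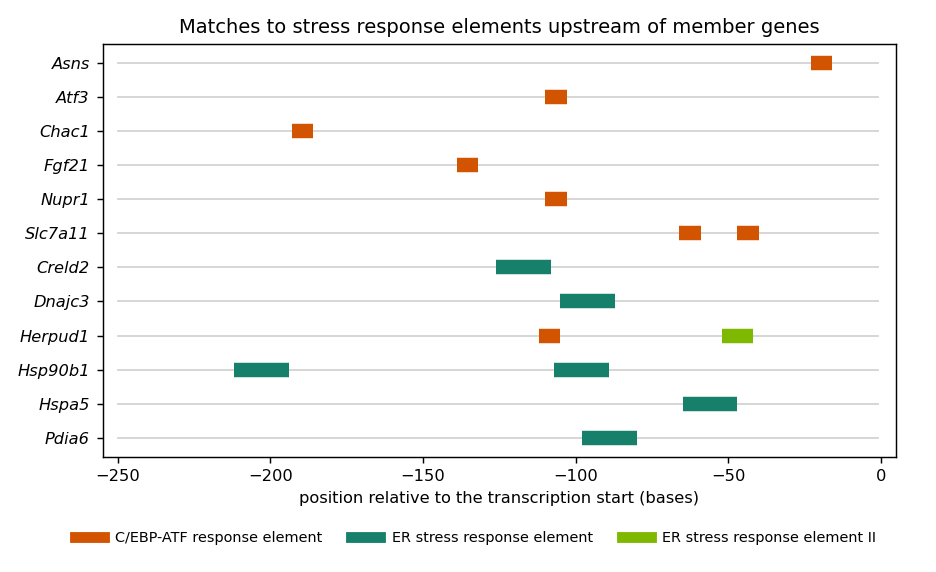
Positions of matches to 3 stress response elements in the 250 bases before the transcription start (x axis, bases) for the 12 member genes with a match. The ATF4 arm genes in the upper 6 rows hold only C/EBP-ATF matches, and the ATF6-XBP1 arm genes below hold ER stress response elements, with Herpud1 holding both kinds.

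Levels below are log2 of the array signal minus the 75th percentile of the same array, so 0 marks a spot at that percentile, and differences are B16-F1 minus D5.1G4 on the log2 scale. A gene was called when limma's adjusted p, taken over all 18451 features tested, was at most 0.05 and the lines differed at least 2-fold. Between the lines 2800 features were called, 15.2% of those tested (6.29% higher and 8.89% lower in B16-F1). Of the 45 stress genes tested, 7 were called (15.6%), a share near that background: Slc7a11, Sesn2 and Atf6 rose in B16-F1 and Gdf15, Fgf21, Slc7a3 and Atf3 fell. In the ATF4 arm 6 of 28 (21.4%) were called, and 0 of the 13 tested ATF6-XBP1 genes were. Gdf15 and Fgf21 entered the test through their D5.1G4 arrays alone, and among genes well above background on every array 4 of 26 in the ATF4 arm were called, 2 higher and 2 lower. Over all features under that filter 2126 of 15933 were called, 807 higher and 1319 lower. The difference between the arms' shares was not tested. By limma's unadjusted p, 14 of 28 ATF4 arm genes and 3 of 13 ATF6-XBP1 genes lay at 0.05 or less, beside 44.9% of all features.

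**Figure D2:**
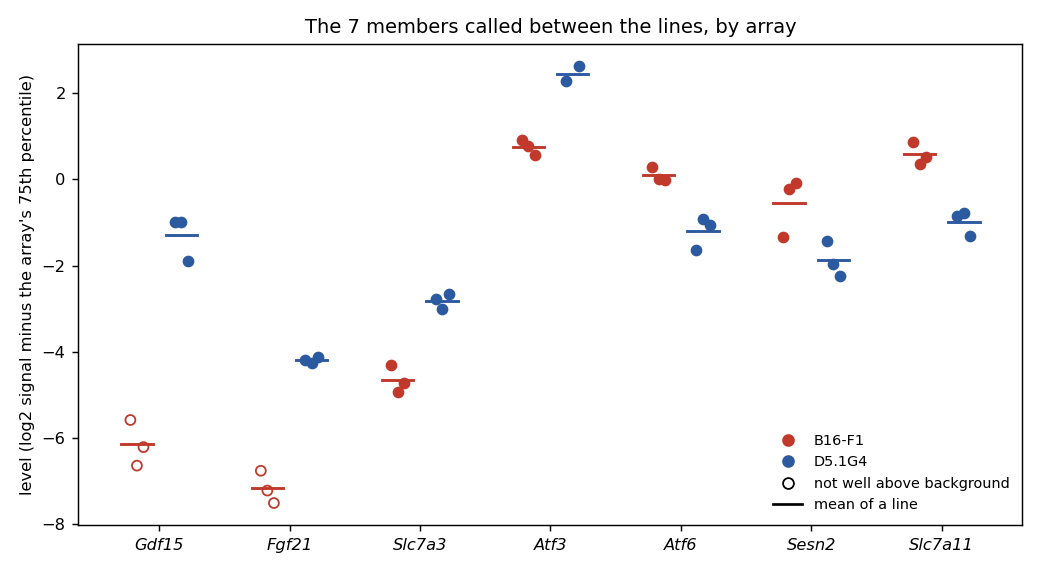
Level of the 7 called genes on each array (y axis, log2 signal minus the array's 75th percentile), with B16-F1 in red, D5.1G4 in blue and a bar at each line's mean. Open circles are genes whose B16-F1 arrays were all too dim to count as above background, and D5.1G4 replicate 2 has no Atf3 value.

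Among the transcription factors of the ATF4 arm, Atf3 alone was called. Atf3, an early stress-induced repressor and activator of the ATF family, stood at 0.91, 0.78 and 0.57 on B16-F1 replicates 1, 2 and 3 and at 2.28 and 2.64 on D5.1G4 replicates 1 and 3, its spot on replicate 2 having been set aside as an outlier. The D5.1G4 values lay above all B16-F1 values, and Atf3 fell 3.27-fold in B16-F1, a difference of -1.71 (SE 0.18, limma's adjusted p = 0.00212). Atf4 itself, whose protein is controlled mainly by translation, read 6.32, 6.56 and 6.38 in B16-F1 and 6.76, 7.05 and 6.75 in D5.1G4. These groups did not overlap, yet the difference of -0.43 (95% interval -0.76 to -0.10, adjusted p = 0.0539) passed neither threshold, and a second, dimmer Atf4 probe gave 0.91 with the opposite sign. Ddit3, which encodes CHOP, a factor linked to cell death under prolonged stress, differed by 0.19 (-0.40 to 0.77) with overlapping arrays. Cebpg and Cebpb, dimerisation partners of ATF4, differed by -0.48 (adjusted p = 0.093) and 0.09, Atf5 by -0.25 and the chromatin-associated stress protein gene Nupr1 by 0.36, none of them called.

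The feedback and growth-control genes held 1 call in 5. Sesn2, which encodes sestrin 2, a leucine-binding inhibitor of mTORC1 that p53 also induces, read -1.34, -0.23 and -0.09 in B16-F1 and -1.43, -1.97 and -2.24 in D5.1G4. The groups did not overlap, but B16-F1 replicate 1 lay close to the highest D5.1G4 array. The 2 higher B16-F1 arrays shared a scan time with no D5.1G4 array. Arrays with the same scan time are taken here as 1 slide, which the labels do not name. Sesn2 was 2.5-fold higher (1.32, SE 0.38, adjusted p = 0.0406), but on the slide with both lines the difference was 0.76 (adjusted p = 0.0721), and leaving out any 1 of 4 arrays ended the call: replicate 2 of B16-F1 (adjusted p = 0.114), its replicate 3 (adjusted p = 0.12), replicate 2 of D5.1G4 (adjusted p = 0.111) or its replicate 3 (adjusted p = 0.124). Slide as a block (adjusted p = 0.0607) ended it too, as did normexp, another background correction (1.17, adjusted p = 0.117), and without both arrays of that slide the difference was 0.53 (adjusted p = 0.378). Trib3, a pseudokinase induced by ATF4 and CHOP that restrains both, read 6.02, 6.11 and 6.01 against 5.77, 6.00 and 5.96, a difference of 0.14 with a 95% interval of -0.14 to 0.41. Ppp1r15a, whose product GADD34 brings a phosphatase to eIF2, differed by 0.10 (-0.16 to 0.35), and Ddit4, an mTORC1 inhibitor, by 0.31 (0.01 to 0.61). Chac1, which degrades glutathione, gave -0.60 (-1.07 to -0.12, adjusted p = 0.058) and did not pass.

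Genes for making amino acids showed 0 of 6 called. The enzymes of serine synthesis split: Phgdh, which commits glycolytic carbon to serine, and Psph, the last step, differed by 0.58 (SE 0.12, adjusted p = 0.0118) and 0.61 (SE 0.16, adjusted p = 0.0395), past the p threshold and under the minimum fold, while Psat1, the step between them, differed by -0.35 (adjusted p = 0.167). Phgdh read 5.09, 5.27 and 5.04 in B16-F1 against 4.46, 4.63 and 4.58 in D5.1G4, without overlap. Psph had no value on D5.1G4 replicate 2. With normexp the adjusted p was 0.0887 for Phgdh and 0.283 for Psph, and with scaling to the array median 0.351 and 0.362. Further probes gave 0.81 for Phgdh and 0.97 for Psph, both with the same sign, and 0.51 for Psat1, with the opposite sign. Asns, asparagine synthetase, a widely used readout of ATF4 activity, read 6.11, 6.14 and 5.79 against 6.24, 6.75 and 6.69, a difference of -0.55 (-1.0 to -0.10, adjusted p = 0.0651). The mitochondrial folate enzyme genes Shmt2 and Mthfd2 differed by -0.12 (-0.49 to 0.25) and 0.10 (-0.26 to 0.46).

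Of 8 amino acid transporter genes, 1 rose and 1 fell. Slc7a11, the light chain of the cystine-glutamate exchanger that supplies cysteine for glutathione, read 0.88, 0.35 and 0.52 in B16-F1 and -0.86, -0.78 and -1.32 in D5.1G4. All B16-F1 arrays lay above all D5.1G4 arrays, and the difference was 1.57 (SE 0.21, 2.97-fold, adjusted p = 0.00246). Its partner, the heavy chain Slc3a2, gave -0.04 (-0.45 to 0.37). Slc7a3, a carrier of arginine and other cationic amino acids, was dim and read -4.31, -4.95 and -4.72 against -2.78, -3.02 and -2.67. It was well above background on every array and 3.57-fold lower in B16-F1 (-1.84, SE 0.20, adjusted p = 0.00118), while Slc7a1, another cationic amino acid carrier, gave 0.14 (-0.34 to 0.62). Slc38a2, a neutral amino acid transporter induced by starvation, differed by 0.64 (adjusted p = 0.0367), under the minimum fold. The remaining neutral amino acid carriers Slc7a5, Slc1a4 and Slc1a5 differed by -0.04, -0.28 and -0.20, with adjusted p-values of 0.862, 0.233 and 0.313.

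Both secreted factors of the arm fell, and neither reached a level well above background in B16-F1. Gdf15, a stress hormone of the TGF-beta family that p53 also induces, read -5.59, -6.65 and -6.22 in B16-F1 and -0.99, -0.99 and -1.89 in D5.1G4. Its fitted difference was -4.87 (adjusted p = 0.000319), from B16-F1 values too dim to count as above background. In the main scaling Gdf15 was 22.8-fold lower in B16-F1 when its D5.1G4 mean was set against a floor. That floor takes the lowest signal that counts as above background on each B16-F1 array or the probe's own, whichever was higher. Its mean over the arrays was used, so the fold is not a strict lower bound. Fgf21, a metabolic hormone induced by ATF4, read -6.77, -7.23 and -7.52 against -4.20, -4.27 and -4.12. Its fitted difference was -2.98 (adjusted p = 0.000244), and by the same reckoning Fgf21 was 3.03-fold lower. Under normexp neither was called (-2.42, adjusted p = 0.0617 for Gdf15 and -0.48, adjusted p = 0.73 for Fgf21), nor was Slc7a3 (-0.69, adjusted p = 0.466).

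Of the sensor genes, Atf6 rose and the others were not called. Atf6 read 0.29, 0.01 and -0.01 in B16-F1 and -1.64, -0.93 and -1.05 in D5.1G4, without overlap, and was 2.47-fold higher (1.30, SE 0.22, adjusted p = 0.00561). Without the 2 B16-F1 arrays of the slide that held no D5.1G4 array the difference was 1.5 (adjusted p = 0.0582). Ern1, the gene of IRE1, read -3.12, -2.71 and -2.64 against -2.21, -2.03 and -2.42, a difference of -0.60 (SE 0.18, adjusted p = 0.0429) that lay under the minimum fold. Eif2ak3 (PERK), measured on 2 B16-F1 arrays, differed by 0.58 (0.00 to 1.16, adjusted p = 0.112), and Eif2ak4 (GCN2) by 0.10 with arrays that overlapped.

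**Figure D3:**
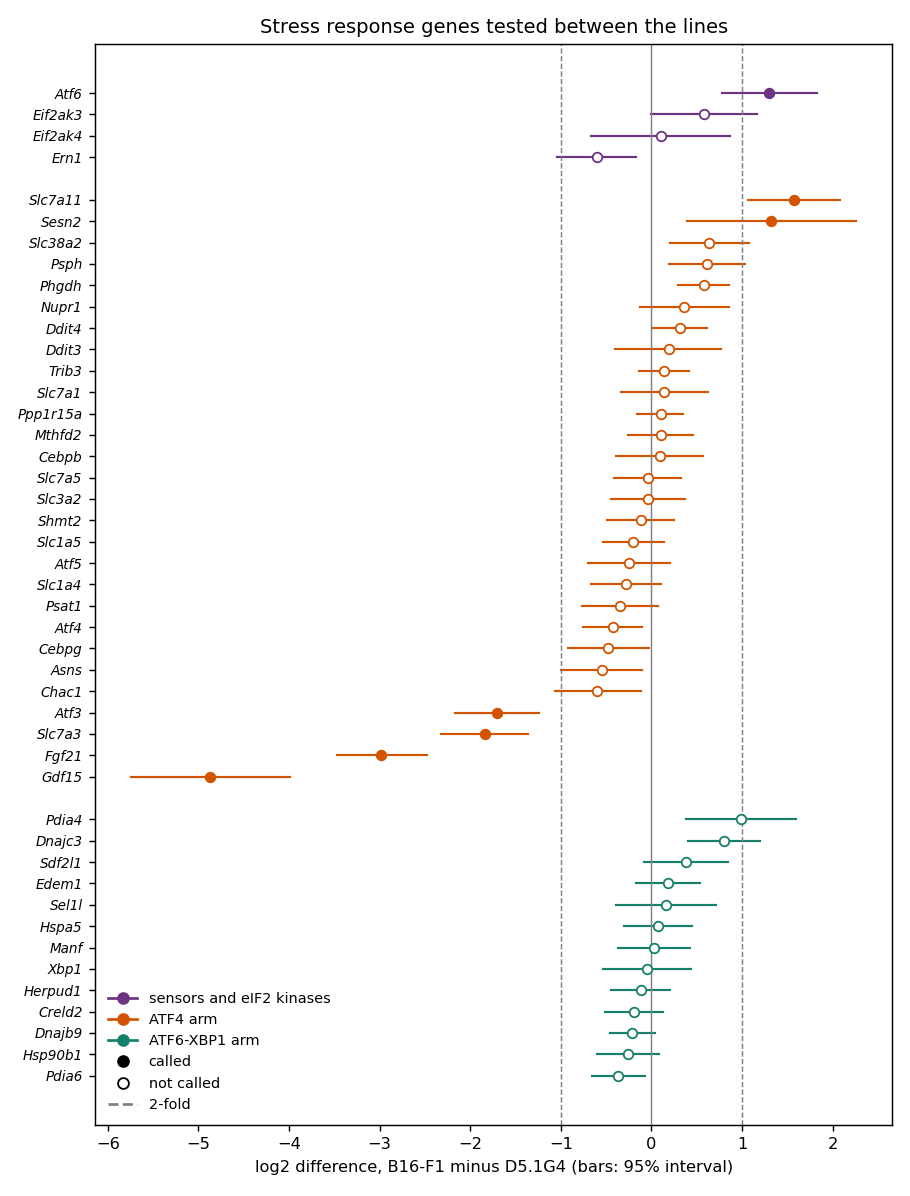
Log2 difference of each of the 45 tested genes (x axis, B16-F1 minus D5.1G4) with its 95% interval, by arm. Filled points are called, and the dashed lines mark a 2-fold difference. Gdf15 and Fgf21 stand at fitted differences that are not measured in B16-F1, where both are too dim. Calls on both sides of 0 appear in the ATF4 arm, and the ATF6-XBP1 points run from -0.37 to 0.99.

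The ATF6-XBP1 arm, made up of 9 tested chaperone and oxidoreductase genes, 3 degradation genes and Xbp1, held no call. In limma's test 0 of 13 were called, with 3 genes at an unadjusted p of at most 0.05. The 95% intervals of 11 of 13 lay within 2-fold in either direction, beside 19 of 28 in the ATF4 arm and 53.7% of all features. Hspa5, which encodes BiP, the main ER chaperone and a standard marker of ER stress, read 6.34, 6.45 and 5.99 in B16-F1 and 6.07, 6.25 and 6.25 in D5.1G4, a difference of 0.07 (-0.30 to 0.45). Hsp90b1 (GRP94, the ER form of HSP90) gave -0.26 (-0.60 to 0.08), and the small secreted ER proteins Manf and Creld2 gave 0.03 (-0.37 to 0.43) and -0.19 (-0.51 to 0.13). Sdf2l1, a component of ER chaperone complexes, gave 0.38 (-0.08 to 0.84), and the BiP co-chaperone Dnajb9 gave -0.21 (-0.46 to 0.04), with 0.26 from a dimmer probe. Xbp1 was measured on 1 D5.1G4 array only and differed by -0.05 (-0.53 to 0.44).

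A pair of genes in this arm stood above the rest. Pdia4, a protein disulfide isomerase, read 1.40, 1.92 and 1.92 in B16-F1 and 1.16, 0.74 and 0.38 in D5.1G4, and its difference of 0.99 (SE 0.25, adjusted p = 0.0254) is a 1.98-fold change, just under the minimum. It was called when replicate 1 of B16-F1 was left out (1.16), when replicate 1 of D5.1G4 was (1.19) and with the authors' processed values (1.0). Leaving out any other array gave 0.80 to 0.97, with adjusted p from 0.0713 to 0.0835. Normexp gave 0.89 (adjusted p = 0.0945) and the replicate block 0.99 (adjusted p = 0.0933). On the slide that held both lines the difference was 0.84. Dnajc3, a BiP co-chaperone also known as an inhibitor of eIF2 kinases, read -1.01, -1.03 and -0.60 against -1.54, -1.65 and -1.85, a difference of 0.80 (SE 0.16, adjusted p = 0.0118). With each array left out in turn the Dnajc3 adjusted p was at most 0.0457. Scaling to the array median gave 0.68 (adjusted p = 0.131), the replicate block 0.80 (adjusted p = 0.0623) and slide as a block 0.74 (adjusted p = 0.10). Pdia6, another isomerase, lay on the other side of 0, at -0.37 (-0.66 to -0.07, adjusted p = 0.0602). The degradation genes Herpud1, Edem1 and Sel1l, which mark and extract misfolded proteins, differed by -0.12, 0.18 and 0.16, with adjusted p-values of 0.512, 0.369 and 0.623. Hyou1, an ER chaperone, was not tested: its probe read -7.39, -5.16 and -4.34 in B16-F1 and -6.65, -6.96 and -7.12 in D5.1G4 and was well above background on 2 arrays, B16-F1 replicates 2 and 3.

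The median difference was -0.04 over the 28 ATF4 arm genes, 0.03 over the 13 tested ATF6-XBP1 genes and 0.00 over all features. The median absolute difference was 0.36 in the ATF4 arm and 0.19 in the ATF6-XBP1 arm, beside 0.43 over all features, with median SEs of 0.18, 0.15 and 0.17, and whether the arms differ in it was not tested. Among genes well above background on every array, differences ran from -1.84 to 1.57 in the ATF4 arm and from -0.37 to 0.99 in the other. By adjusted p alone, with no minimum fold, 9 ATF4 arm genes (5 higher, 4 lower) and 2 ATF6-XBP1 genes (both higher) passed, where 34.9% of all features did (14.5% higher and 20.4% lower). Arrays of B16-F1 and D5.1G4 were fully apart for 15 of 28 ATF4 arm genes (53.6%) and 5 of 13 ATF6-XBP1 genes (38.5%), genes with a missing array included, and for 50.7% of all features that were measured on every array.

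**Figure D4:**
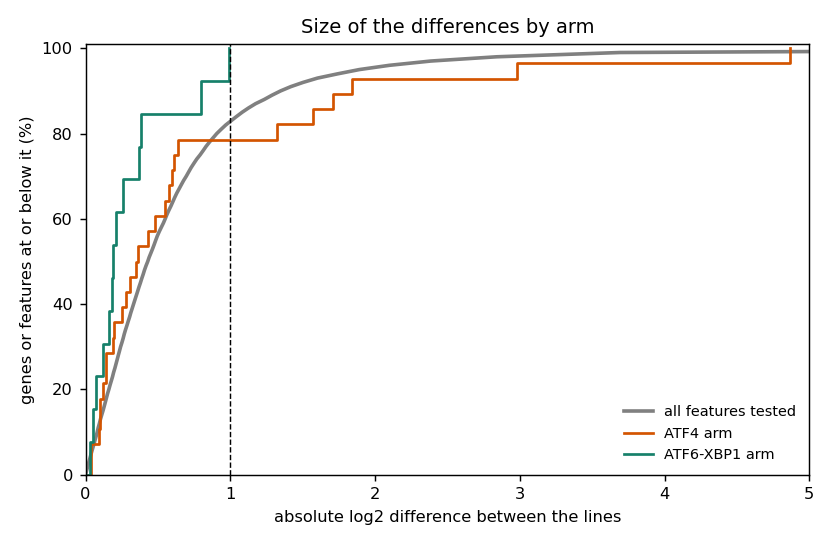
Cumulative share of genes (y axis, %) by absolute log2 difference between the lines (x axis) for the ATF4 arm, the ATF6-XBP1 arm and all features tested, drawn to a difference of 5. The ATF6-XBP1 curve reaches its top at 0.99, just before the dashed 2-fold line, and the 2 points farthest right on the ATF4 curve are Gdf15 and Fgf21 at fitted differences that are not measured in B16-F1, where both are too dim.

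Array by array, each gene's level was set against its D5.1G4 mean and the median taken over an arm. In the ATF4 arm these medians were -0.05, -0.12 and -0.05 for B16-F1 replicates 1, 2 and 3 and -0.06, 0.09 and -0.01 for D5.1G4. In the ATF6-XBP1 arm they were 0.02, -0.05 and -0.07 for B16-F1 and 0.00, 0.07 and 0.01 for D5.1G4. The lines overlapped in both arms.

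**Figure D5:**
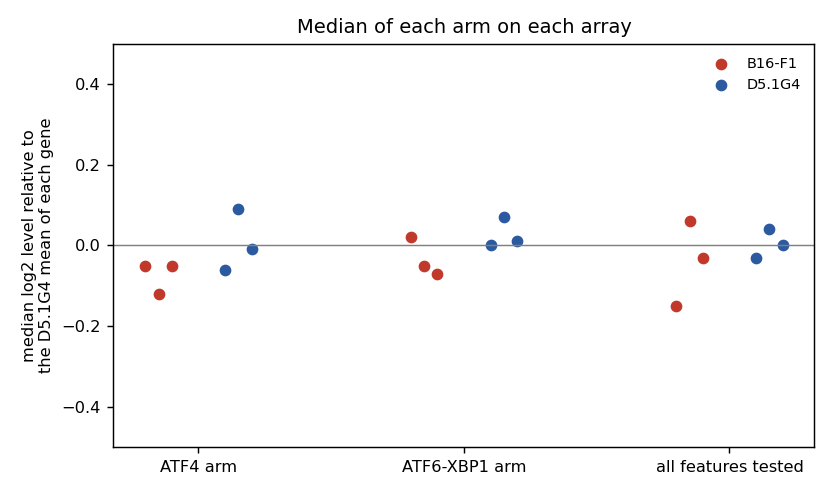
Median over each arm of the log2 level relative to the gene's D5.1G4 mean (y axis), 1 point per array, with all features beside them. All points lie between -0.15 and 0.09.

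Read by promoter element, the 6 ATF4 arm genes with a C/EBP-ATF match went both ways: Slc7a11, whose 2 matches are printed above, rose by 1.57, Atf3 and Fgf21 fell, and Asns, Chac1 and Nupr1 gave -0.55, -0.60 and 0.36 without passing. Atf3, Chac1, Fgf21 and Nupr1 hold the same letters, TTGCATCA, in the same orientation. So do the Slc7a11 match nearer the transcription start and the Herpud1 match. Genes with the full ER stress response element, Hspa5, Hsp90b1, Dnajc3, Pdia6 and Creld2, ranged from -0.37 to 0.80 with 0 of 5 called.

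The rest of the pathway, taken as 8 lists of 91 genes, gave 13 calls among 85 tested (15.3%), 8 higher and 5 lower, again near 15.2%. In a list of other ATF4-linked genes 4 of 14 rose and 0 fell, and the list's median was -0.10. By adjusted p alone 6 of the 14 were higher and 4 lower, beside 14.5% and 20.4% of all features. Among the list's genes well above background on every array 3 of 13 rose and 0 fell, beside 807 higher and 1319 lower of 15933 features. The remaining riser entered the test through its B16-F1 arrays alone. Tnfrsf10b, the death receptor DR5 and a target of CHOP, rose by 4.86 (SE 0.45, adjusted p = 0.000689), reading 1.26, 1.17 and 1.2 against -2.56, -4.20 and -4.18. Cth, which makes cysteine from cystathionine, rose by 1.26, and Pck2, the mitochondrial enzyme that makes phosphoenolpyruvate, by 1.23. Of 12 cytosolic aminoacyl-tRNA synthetases, which charge tRNAs and are induced by ATF4, 2 fell, Yars1 by 1.34 and Cars1 by 1.29, and the list's median was -0.12. Among 14 genes of eIF2, its exchange factor eIF2B and their regulators 2 rose, Eif2s3x by 1.14 (adjusted p = 0.0342), a subunit of eIF2, and Eif2a, an alternative initiation factor, by 1.05. Eif2ak2, the double-stranded RNA kinase PKR that also phosphorylates eIF2, differed by 0.87 (adjusted p = 0.0031), under the minimum fold.

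On the ER side 0 of 13 other folding genes were called by limma, the ER lectin chaperones Calr and Canx giving 0.04 and -0.14, while in other degradation genes (11 tested) Edem2 rose by 1.06 and Ube2j1, a ubiquitin-conjugating enzyme of the ER membrane, fell by 1.51. Of 8 other sensors and ATF6-like factors Creb3l1 rose by 1.19 and Creb3 fell by 1.06, both membrane-bound transcription factors released by cleavage as ATF6 is. Hspb1, a small heat shock protein, fell by 2.61 (SE 0.16, adjusted p = 0.000164) among 8 tested cytosolic heat shock genes, and 0 of 5 mitochondrial stress genes were called. Without the 2 arrays of the B16-F1-only slide the median of the other ATF4-linked list was -0.17 (-0.10 in the main fit). It was -0.49 for other sensors (-0.22), -0.20 for synthetases (-0.12), 0.24 for the eIF2 list (0.11) and -0.36 for degradation (-0.40). Over all features it was -0.15. Fewer genes were called in that fit, both in these lists and over all features. That fit has 1 B16-F1 array, assumed to vary like D5.1G4, and 1 of the 4 called ATF4-linked genes has no value on it and was not tested.

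Across the arrays 53.4% to 62.0% of spots were well above background, the 2 highest shares being those of B16-F1 replicates 2 and 3, which shared a scan time and are taken as slide 1. B16-F1 replicate 1 and D5.1G4 replicates 2 and 3 formed slide 2 and D5.1G4 replicate 1 slide 3. Within slide 2, with 1 B16-F1 array against 2 of D5.1G4, the differences were -1.46 for Slc7a3, -1.73 for Atf3, 1.93 for Slc7a11 and 1.28 for Atf6. There the spread came from the D5.1G4 pair alone, and the lone B16-F1 array was assumed to vary like it. Gdf15 and Fgf21 gave -4.15 and -2.58 in that fit, from a B16-F1 array on which both were too dim to count as above background. All 7 melanocyte lineage markers (Mitf, Sox10, Tyr, Dct, Tyrp1, Pmel and Mlana) were well above background on every array and 0 of 7 were called, with summed levels of 8.81 to 9.14 in B16-F1 and 9.15 to 9.63 in D5.1G4. Tyr differed by 0.78 (limma's adjusted p = 0.00579) and Mlana by -0.68 (adjusted p = 0.0247), both under the minimum fold. Of the fibroblast markers 4 of 5 were not above background on any array, including Pdgfra, Col3a1, Dcn and Fap, and Lum was above it on 1. Their summed levels ran from -5.17 to -3.42 in B16-F1 and from -4.80 to -4.14 in D5.1G4. Summed leukocyte markers ranged from -0.61 to 0.88 in B16-F1 and from -0.58 to 0.68 in D5.1G4, endothelial markers from -0.57 to 0.57 and -0.28 to -0.16, and keratinocyte markers from 0.34 to 0.83 and 0.58 to 1.08. Adgre1, Csf1r, Itgam, Kdr, Pecam1, Krt5, Krt14 and Trp63 were well above background on 3 or more arrays, Ptprc on 2, Cdh5, Tek and Krt10 on none, and 0 of these markers were called. Their part in the results was not tested.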

How the data were processed

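RNA of 3 arrays of each line was measured on one-colour Agilent mouse arrays. The deposited spot intensity came from Agilent Feature Extraction 11.0.1.1, per the submitters' processing notes, and was background-subtracted within each array, per the file headers. The authors' deposited series table holds log2 values whose columns share a median of 9.71, and no source used here gives their normalization.

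For this report log2 of the processed intensity was scaled to each array's 75th percentile, spots the scanner software marked as outliers (0.674% to 1.58% per array) were dropped, and a probe's remaining spots averaged. No spot was saturated. Accessions matched 27234 of 39429 probes (69.1%) to a RefSeq symbol (GRCm38.p6), and older symbols in that table were used for the tRNA synthetases. The brightest probe by its mean over 6 arrays stood for a gene, and features well above background on at least 3 arrays were tested with limma 3.58.1 in R 4.3.3, 2-sided, with Benjamini-Hochberg adjustment. Intervals are 95% intervals of the moderated test. The number of arrays limits the precision. The fit was checked on simulated data. Normexp used median spot and background signals with an offset of 50, since the files give no mean signal. Members, arms and lists were chosen with earlier results of these data known. All 46 members were to be named, with up to 4 called genes of each other list, and the values of 1 gene that this rule took are not reported here. All per-sample columns were mapped. Arrays with the same scan time in the file headers were taken as 1 slide. Promoters were searched by exact letters.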

Additional observations from a re-analysis of the deposited data

How the results depend on the processing

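Each of the 45 tested genes was refitted under the alternatives, where they gave it a value. The alternative without a minimum fold kept the main fit and changed only the calling rule. Slide as a block draws its differences from slide 2, so it repeats those of slide 2 alone. The fits counted here are therefore not all separate. In 877 such fits the direction and the call were as reported, in 13 a call was lost (4 with normexp, 8 others of Sesn2 and 1 of Atf6) and in 9 one was gained. In 40 fits of 18 genes the sign changed, 0 of these genes being called in any. The log2 differences of the other sign follow by setting. With quantile normalization the value was 0.03 for Atf5, 0.07 for Slc7a5, 0.17 for Slc3a2 and 0.00 for Xbp1. With scaling to the median the value was -0.04 for Cebpb, -0.03 for Ppp1r15a, -0.02 for Mthfd2, -0.03 for Eif2ak4, -0.05 for Hspa5 and -0.09 for Manf. With normexp the value was -0.06 for Manf. With the authors' values the value was 0.04 for Atf5, 0.08 for Slc7a5, 0.18 for Slc3a2 and 0.27 for Xbp1. With outlier spots kept the value was 0.16 for Xbp1. With the mean over probes the value was 0.24 for Atf4, 0.08 for Psat1 and 0.03 for Dnajb9. With slide as a block the value was -0.10 for Ddit3, -0.07 for Manf and 0.08 for Herpud1. With slide 2 alone the value was -0.10 for Ddit3, -0.07 for Manf and 0.08 for Herpud1. With the arrays of slide 1 left out the value was -0.15 for Cebpb, 0.04 for Shmt2, 0.04 for Slc3a2 and -0.04 for Slc7a1. Leaving out 1 array at a time gave ranges across 0, from -0.18 to 0.07 for Slc7a5, -0.02 to 0.21 for Hspa5, -0.02 to 0.19 for Mthfd2, -0.15 to 0.07 for Slc3a2, -0.09 to 0.13 for Manf, -0.02 to 0.34 for Sel1l, -0.08 to 0.34 for Ddit3, -0.26 to 0.34 for Eif2ak4 and -0.05 to 0.25 for Cebpb.

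With normexp 1251 features were called in place of 2800, and 2 ATF4 arm genes (Slc7a11 and Atf3) in place of 6, with arm medians of -0.13 (ATF4) and -0.06 (ATF6-XBP1). Without a minimum fold 6435 features and 2 ATF6-XBP1 genes passed. The authors' values gave 1 ATF6-XBP1 call, Pdia4, and medians of 0.10 and 0.15, quantile normalization 0.09 and 0.13, and scaling to the array median -0.16 and -0.07, where the median of all features moved to -0.13. The mean over probes gave an ATF4 median of 0.08, and the ATF6-XBP1 median was 0.08 with slide as a block and 0.09 within slide 2. The cause was not tested. Leaving out 1 array at a time gave 2531 to 3379 features, 5 to 6 ATF4 arm and 0 to 1 ATF6-XBP1 calls, and medians of -0.12 to 0.02 and -0.04 to 0.08. The alternative without the 2 arrays of slide 1 was chosen after seeing the data. It gave medians of -0.05 (ATF4) and 0.02 (ATF6-XBP1), beside -0.15 over all features.

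The labels do not pair equal replicate numbers, and the deviations of same-numbered arrays correlated at -0.39, -0.03 and -0.30. With the replicate block 2581 features, 5 ATF4 arm genes (Sesn2 lost, adjusted p = 0.122) and 0 ATF6-XBP1 genes were called. Signal near background limits Gdf15, Fgf21 and Slc7a3.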
